A study of Homo sapiens with 2 samples.

Results

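The genes described here are 44 genes of mitosis and chromosome segregation, chosen by name: cyclins and CDK1, mitotic kinases, the spindle checkpoint, kinetochore proteins, kinesins, cytokinesis factors, and condensin with other chromosome proteins. All 44 were found among the 26257 gene symbols of the isoform table, as 125 isoforms, and their FPKM were summed per symbol in each library. The libraries came from HCT-116, an established human colorectal carcinoma line: 1 control library, and 1 library of serum-starved cells exposed for 24 h to 10 µM lysophosphatidic acid (LPA), a signalling phospholipid. Both came from cells grown in DMEM with fetal bovine serum and penicillin/streptomycin. The sources used here do not say whether control cells were starved of serum or received a vehicle. The comparison asks how poly-A RNA levels differ with LPA. With 1 library per condition, every difference below is between these libraries, has no replicate check and carries no p-value.

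Transcripts of mitotic genes accumulate late in the cell cycle, when entry into mitosis is driven by CDK1 bound to cyclins A and B. Many of their promoters carry the cell cycle homology region and CCAAT boxes, through which the DREAM and MuvB complexes, FOXM1, MYBL2 and NF-Y act. In a bulk sample, a change in the share of cells in G2 and mitosis and a change in RNA per cell cannot be told apart.

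The 44 genes had no common direction. In the LPA library 19 had a higher and 25 a lower FPKM than in the control, a share of 43.2% above 0 beside 50.2% of the 11688 genes averaging 1 FPKM or more. Their median log2 ratio was -0.04, against 0.001 for all genes. The ratio divides the LPA level by the control level, after 1 FPKM is added to each, so it understates differences of low genes. Genes with a log2 ratio of 0.32 or more (at least 25% higher on this scale) numbered 2 of 44, or 4.55%, beside 8.19% of all genes. Those at -0.32 or less (at least 20% lower) numbered 7 of 44, or 15.9%, beside 10.4% of all genes. On the same scale none of the 44 reached a 1.5-fold difference, which 1.45% of all genes did upward and 1.54% downward. Without the added 1 FPKM, the ratio of MKI67 was 1.53. The higher genes were MKI67 and AURKB, and the lower genes were TOP2A, ECT2, CDK1, KIF18A, MAD2L1, TTK and CDC25C. Summed over all 44 genes, the level was 1347 FPKM for the control and 1375 FPKM with LPA.

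**Figure D1:**
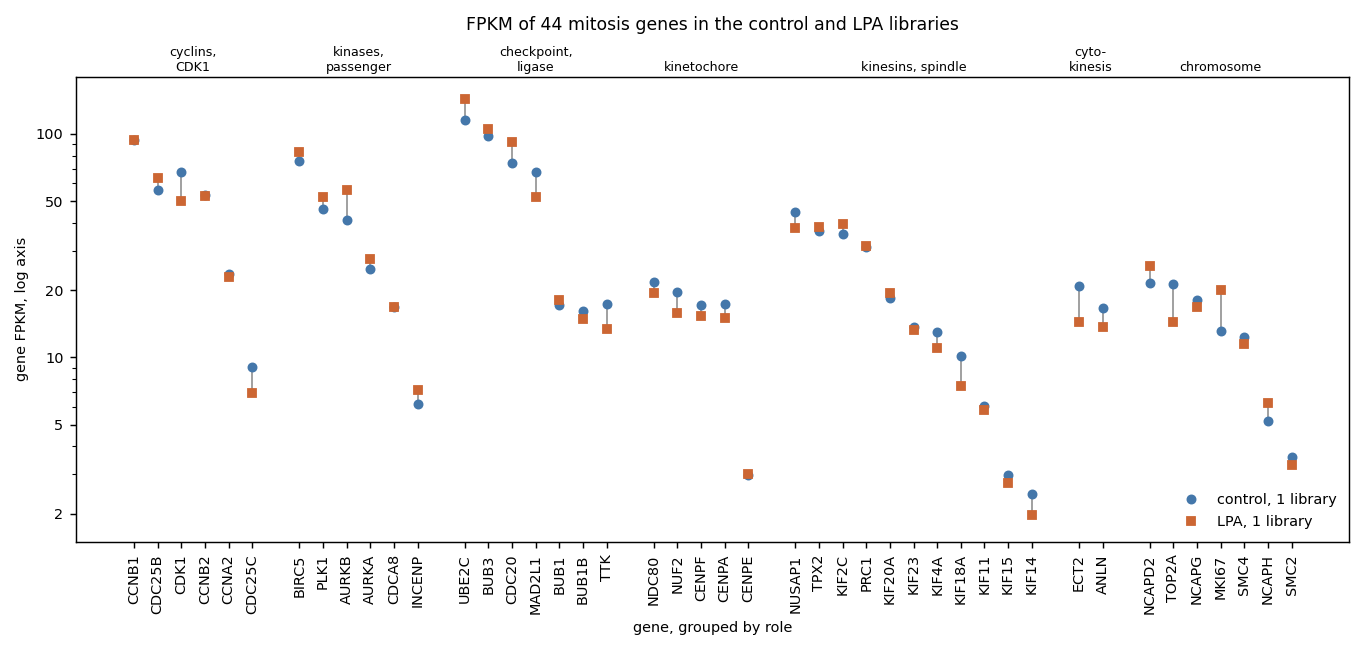
FPKM (log axis) of the 44 genes, grouped by role, in the control library (circles) and the LPA library (squares), with 1 library each and no error bars. Levels run from 1.97 FPKM (KIF14) to 144 FPKM (UBE2C), and the 2 points of most genes lie close together, with the widest gaps at MKI67, TOP2A and ECT2.

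Both libraries had a similar depth. From the smallest FPKM steps, 1 fragment on a transcript of 1 kb was worth 0.0574 FPKM in the control and 0.0621 FPKM with LPA. The members were well covered, from about 213 fragments (KIF15 in the LPA library) to 3733 (MKI67 in the LPA library). Intervals of the LPA-to-control ratio at the 95% level, from the exact (Clopper-Pearson) binomial interval of these fragments, cover counting error only. They lay above 1 for 12 members (27.3%, beside 23.8% of all genes) and below 1 for 15 (34.1%, beside 24.3% of all genes). Of 7 colon epithelium markers, 6 averaged 1 FPKM or more, from CDX2 (9.41 and 10.46 FPKM) to KRT8 (1208 and 1507 FPKM), and VIL1 was listed at 0 in both. In these and each later pair of values the control comes first. Of the 18 fibroblast, immune and endothelial markers, only COL1A1 and CD68 averaged 1 FPKM or more.

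MKI67, which encodes the Ki-67 protein that coats mitotic chromosomes and marks cycling cells, had the highest log2 ratio. It was at 13.2 FPKM (control) and 20.1 FPKM (LPA), with a log2 ratio of 0.57 (counting interval of the ratio 1.46 to 1.61). AURKB, the kinase of the chromosomal passenger complex, was at 41.1 and 55.9 FPKM (log2 ratio 0.44, counting interval 1.24 to 1.48). UBE2C, the ubiquitin-conjugating enzyme of the anaphase-promoting complex, came next and just missed the limit at 0.319, with 115 and 144 FPKM. At the other end stood TOP2A, the topoisomerase that untangles sister chromatids, with 21.4 and 14.4 FPKM (log2 ratio -0.54, counting interval 0.628 to 0.721). ECT2, the exchange factor that activates RhoA at the cleavage furrow, had 20.8 and 14.5 FPKM (log2 ratio -0.50, counting interval 0.640 to 0.754). The cyclin-dependent kinase gene CDK1 itself had 67.5 and 50.2 FPKM (log2 ratio -0.42, counting interval 0.695 to 0.792). MKI67 and TOP2A, both widely used as proliferation markers, thus lay at opposite ends of the 44 genes. The bounds deposited by the authors for the leading isoform overlapped between the libraries for each of these 6 genes, and for 43 of the 44. The exception, SMC2, is 2.27% of the members beside 2.76% of all genes.

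Promoters of 4 genes at both ends of the range are shown because they were searched for the elements through which this gene class is known to be regulated. RefSeq (GRCh38.p14) gave promoter windows, from 250 bases before to 50 after a start site, for 38 of the 44 genes. For the cell cycle homology region, the words TTTGAA and also TTCGAA were searched on both strands. On the other strand the former reads TTCAAA and the latter is unchanged. For the CCAAT box the word was CCAAT, which on the other strand reads ATTGG. The stretches printed are the 250 bases before the outermost start in that table, 5′ to 3′ on the gene's strand, with each match in capitals: MKI67 at chr10:128126424-128126673 (minus strand), TOP2A at chr17:40417897-40418146 (minus), ECT2 at chr3:172750476-172750725 (plus) and CDK1 at chr10:60778081-60778330 (plus). In MKI67 the last TTTGAA and ATTGG share 1 base. Relative to the GENCODE 29 start of the leading isoform, with upstream negative, the RefSeq start lies at -219 for MKI67, -123 for CDK1, 54 for TOP2A and 44 for ECT2. UBE2C is named only.
MKI67: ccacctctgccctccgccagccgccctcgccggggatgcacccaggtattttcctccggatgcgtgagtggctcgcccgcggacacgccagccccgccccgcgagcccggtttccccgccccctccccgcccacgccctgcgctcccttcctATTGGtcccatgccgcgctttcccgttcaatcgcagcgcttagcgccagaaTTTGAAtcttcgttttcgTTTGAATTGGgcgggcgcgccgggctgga
TOP2A: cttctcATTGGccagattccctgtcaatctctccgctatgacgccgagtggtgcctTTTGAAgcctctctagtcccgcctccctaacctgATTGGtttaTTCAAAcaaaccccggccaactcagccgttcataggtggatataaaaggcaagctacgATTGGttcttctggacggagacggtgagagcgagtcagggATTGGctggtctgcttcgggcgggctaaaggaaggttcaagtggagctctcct
ECT2: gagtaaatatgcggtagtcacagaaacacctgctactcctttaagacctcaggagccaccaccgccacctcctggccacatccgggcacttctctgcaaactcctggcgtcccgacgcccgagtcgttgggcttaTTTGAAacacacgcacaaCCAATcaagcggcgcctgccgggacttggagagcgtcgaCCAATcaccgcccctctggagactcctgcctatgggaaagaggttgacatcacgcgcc
CDK1: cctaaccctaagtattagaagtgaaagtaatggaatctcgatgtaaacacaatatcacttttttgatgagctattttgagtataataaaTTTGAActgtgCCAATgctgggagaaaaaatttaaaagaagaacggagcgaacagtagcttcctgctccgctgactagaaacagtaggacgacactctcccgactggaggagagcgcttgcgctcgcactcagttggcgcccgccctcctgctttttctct

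MKI67, with the highest log2 ratio of all 44, has TTTGAA at positions -47 and -29 from the RefSeq start, and TOP2A, with the lowest, has a homology region word at -194 and at -151. All 4 stretches hold both kinds of word, although MKI67 is the only gene among them from the upper end. Over all members with an entry, 31 of 38 (81.6%) had a homology region word in at least 1 window, beside 14.6% of genes averaging 1 FPKM or more and 19.5% of all genes in the promoter table. A CCAAT word was found for 28 of 38 (73.7%), beside 43.4% and 39.7%. Both words were present for 23 of 38 (60.5%), beside 6.37% and 7.85%. Of the 31 members with the homology region word, 8 had a log2 ratio above 0. Of the 7 without it, AURKB among them, 6 did. Median transcript GC content was 41.5% with the word and 47.8% without it, and a relation of word and direction was not tested. Not each window belongs to the transcript measured: for 27 of the 38 members a RefSeq start lies within 100 bases of the GENCODE 29 start of the leading isoform, a check added after the data were seen. In the windows of those 27, the homology region word was present for 22 (81.5%), the CCAAT word for 18 (66.7%) and both for 15 (55.6%). For AURKB the nearest start lies 349 bases inside the measured transcript, so its window is not shown. Among the 4 windows shown, the starts of MKI67 (-219) and CDK1 (-123) also lie more than 100 bases away, upstream of the measured start. For CDK1 another start, whose window is not shown, lies at 24. A match is a description of letters and not a bound site.

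In the switch that starts mitosis, the kinase and its partners did not move together. CCNB1, the main mitotic cyclin, was at 94.1 and 94.2 FPKM, and its counting interval of the ratio was 0.955 to 1.05. CCNB2 was at 53.3 and 52.5 FPKM, and CCNA2, the cyclin of S phase and G2, at 23.5 and 22.8 FPKM. All 3 cyclins thus differed by less than their counting error, while CDK1 was lower in the LPA library. The phosphatases that activate CDK1 split: CDC25C had 9.06 and 6.95 FPKM (log2 ratio -0.34), and CDC25B had 56.3 and 63.6 FPKM (0.17). CDC25C lies at chr5:138285265-138349729 in hg38 and its exons overlap those of FAM53C on the other strand, so reads of the 2 genes cannot be told apart there.

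Mitotic kinases and the chromosomal passenger complex leaned the other way, with 5 of 6 genes above 0 and a median log2 ratio of 0.15. The passenger complex corrects faulty attachments of chromosomes to the spindle. Besides AURKB, its scaffold INCENP had 6.17 and 7.11 FPKM, and BIRC5, which encodes survivin, 75.6 and 82.8 FPKM. Its borealin subunit gene CDCA8 was nearly the same in both, at 16.8 FPKM. The genes of this complex were present at unequal levels per length, with BIRC5 the highest and INCENP the lowest in both libraries. PLK1, the kinase of mitotic entry and spindle poles, had 46.3 and 52.1 FPKM (log2 ratio 0.16), and the spindle pole kinase AURKA 24.99 and 27.5 FPKM (0.14).

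The spindle checkpoint and the ligase it restrains showed both directions within 1 pathway. The checkpoint holds back the anaphase-promoting complex until every kinetochore is attached. MAD2L1, which encodes the checkpoint protein MAD2, had 67.4 and 52.3 FPKM (log2 ratio -0.36, counting interval 0.720 to 0.836). TTK, the kinase MPS1 at the head of the checkpoint, had 17.4 and 13.4 FPKM (-0.35, counting interval 0.695 to 0.852). CDC20, the target that MAD2 blocks and the activator of the ligase, was higher, with 74.2 and 92.1 FPKM (0.31, counting interval 1.17 to 1.32). It fell just short of the 0.32 limit, as UBE2C did. The other checkpoint genes differed little: BUB1B at 16.2 and 14.9 FPKM, BUB1 at 17.2 and 18.0 FPKM and BUB3 at 98.0 and 105 FPKM. The BUB1B locus of the table also holds PAK6, with which it forms a read-through transcript.

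**Figure D2:**
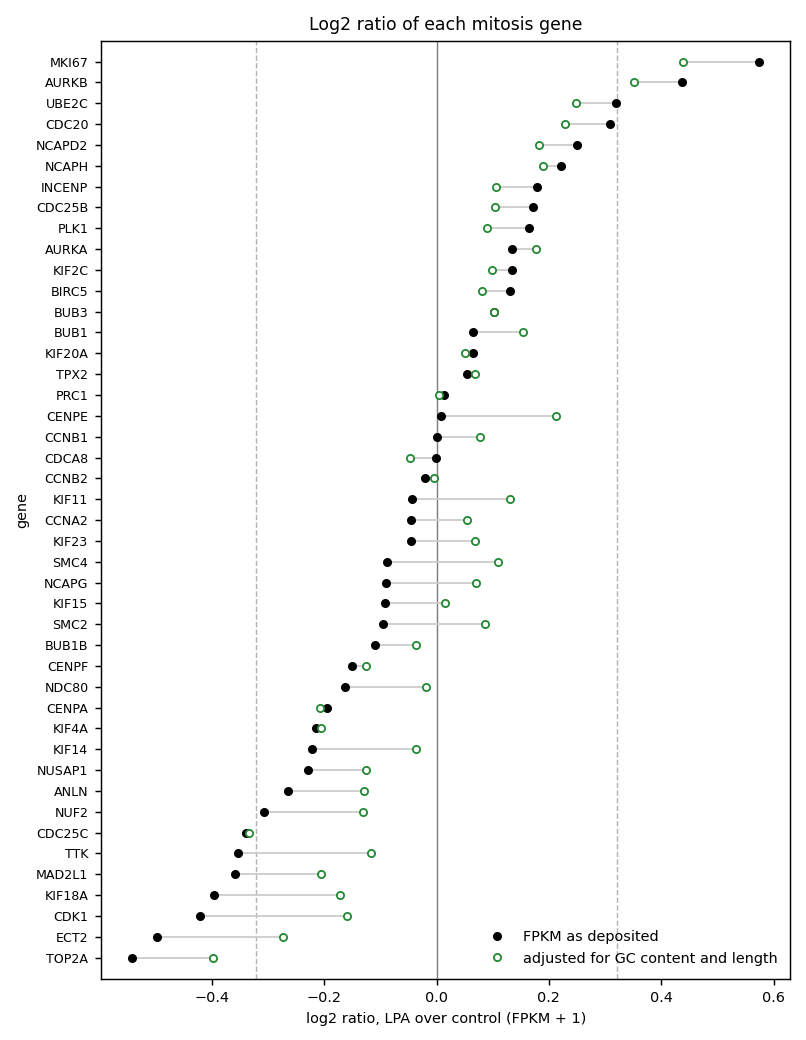
Log2 ratio of each of the 44 genes (LPA over control, FPKM + 1), sorted, with FPKM as deposited (filled) and after adjustment for transcript GC content and length (open); dashed lines mark -0.32 and 0.32. MKI67 and AURKB lie beyond the upper line in both forms, and of the 7 genes beyond the lower line TOP2A and CDC25C remain there after adjustment.

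Among centromere and kinetochore genes, 4 of 5 were lower in the LPA library and the median log2 ratio was -0.16, although none reached -0.32. NUF2 and NDC80 encode partner subunits of the complex that grips microtubules. NUF2 had 19.7 and 15.7 FPKM (-0.31) and NDC80 21.8 and 19.3 FPKM (-0.16). CENPA, the histone H3 variant that defines centromeres, had 17.3 and 14.97 FPKM (-0.19), and CENPF 17.1 and 15.3 FPKM (-0.15). The kinetochore kinesin gene CENPE was nearly the same in both, at 2.983 and 3.003 FPKM.

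Of 11 kinesin and spindle genes, 4 were above 0 and 7 below, with a median of -0.05 and a range from -0.40 to 0.13. KIF18A, the kinesin that damps chromosome movements at the metaphase plate, was the 1 gene past the limit, with 10.2 and 7.49 FPKM (log2 ratio -0.40, counting interval 0.648 to 0.834). After the GC and length adjustment described below, 7 of the 11 genes were above 0 (median 0.02), and KIF18A was at -0.17. NUSAP1, a microtubule bundling protein gene, had 44.5 and 37.8 FPKM and the chromosome kinesin gene KIF4A 12.96 and 11.03 FPKM. Genes of the central spindle were nearly level: its bundler PRC1 at 31.2 and 31.5 FPKM, the kinesin KIF23 at 13.7 and 13.3 FPKM and KIF20A at 18.5 and 19.3 FPKM. The same held for genes of spindle assembly, with TPX2, which activates AURKA, at 36.9 and 38.4 FPKM and the bipolarity motor KIF11 at 6.04 and 5.84 FPKM. KIF2C, a kinesin that shortens microtubules, had 35.8 and 39.4 FPKM. The motors KIF15 (2.98 and 2.74 FPKM) and KIF14 (2.46 and 1.97 FPKM) had the lowest levels of this group in both libraries. In the step that follows, cytokinesis, both genes were lower: beside ECT2, the furrow scaffold gene ANLN had 16.7 and 13.7 FPKM (-0.26).

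Chromosome structure genes spanned the whole range, from TOP2A at -0.54 to MKI67 at 0.57. Genes of condensin, the ring complex that compacts chromosomes, lay on both sides of 0. Its ATPase core genes SMC2 (3.59 and 3.29 FPKM) and SMC4 (12.3 and 11.5 FPKM) had log2 ratios of -0.10 and -0.09, within counting error. Of its other subunits, NCAPD2 had 21.5 and 25.7 FPKM (0.25, counting interval 1.12 to 1.28), NCAPH 5.19 and 6.23 FPKM (0.22, counting interval 1.07 to 1.35) and NCAPG 18.0 and 16.8 FPKM (-0.09). After the adjustment for GC content and length described below, all 5 were above 0, from 0.07 (NCAPG) to 0.19 (NCAPH). Per length, SMC2 was the lowest of the 5 condensin genes in both libraries.

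Base composition moved with these differences. The GC content of the leading transcript, from GENCODE 29 sequences, ran from 35.4% (CENPE) to 60.1% (INCENP). Across the 44 genes it had a Spearman correlation of 0.77 and a Pearson correlation of 0.72 with the log2 ratio, given as a description, since all values come from the same 2 libraries. Across the 11590 expressed genes that had a GC value, the same correlations were 0.30 and 0.21. Among the 22 members with GC up to 43.2%, 3 had a log2 ratio above 0 (13.6%), beside 25.5% of all genes in that GC range. Among the 22 members with more GC, 16 were above 0 (72.7%), beside 58.6% of all such genes. The genes past the lower limit had a median GC of 37.0%, from CDK1 at 35.6% to CDC25C at 47.0%, while MKI67 had 48.3% and AURKB 56.6%. Transcript length showed little relation (Spearman -0.07).

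**Figure D3:**
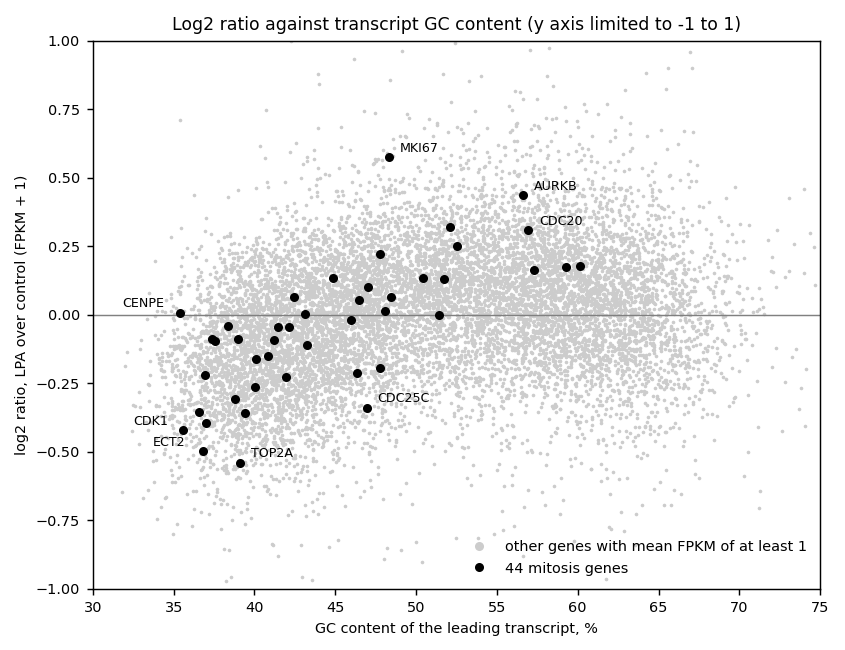
Log2 ratio (LPA over control, FPKM + 1) against GC content of the leading transcript in percent, for the 44 mitosis genes (black) and other genes averaging 1 FPKM or more (grey), with the y axis limited to -1 to 1. Black points run from low GC and negative ratios (CDK1, ECT2, TOP2A) to higher GC and positive ratios (AURKB, CDC20), and MKI67 lies above the others at 48.3% GC.

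After a smooth fit on GC content and length over all genes was subtracted, 26 of the 44 members were above 0 (59.1%, beside 50.6% of all genes) and 18 below, and their median turned from -0.04 to 0.06. Past the upper limit were 2 (4.55%, beside 7.37% of all genes) and past the lower 2 (4.55%, beside 7.59%), so the share of lower members was above that of all genes before adjustment and below it after. MKI67 (0.44) and AURKB (0.35) kept log2 ratios above 0.32. TOP2A (-0.40) and CDC25C (-0.33) stayed below -0.32, whereas ECT2 (-0.27), MAD2L1 (-0.21), KIF18A (-0.17), CDK1 (-0.16) and TTK (-0.12) did not. All 9 genes past the limits kept their sign. Condensin and chromosome genes had an adjusted median of 0.11 in place of -0.09. How much of the raw differences belongs to base composition was not tested.

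Single isoforms of the 44 genes differed more than the gene sums. Of 83 isoforms averaging 1 FPKM or more, 7 were at least 1.5-fold higher (8.43%, beside 9.48% of all isoforms) and 7 at least 1.5-fold lower (8.43%, beside 8.67%). Bounds were separate for 3 of 83 (3.61%, beside 4.61% of all isoforms). Among 23 members with 2 or more such isoforms, the leading one differed between the libraries in 5 (21.7%, beside 20.1% of all such genes): CDC25B, KIF2C, NCAPH, NUF2 and SMC2. These shares lie near the background.

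In SMC2 the leading isoform differed between the libraries, with hardly any difference in sum. NM_001042551 had 2.66 FPKM (deposited bounds 1.73 to 3.58) and 0.779 FPKM (0.289 to 1.27). NM_006444 had 0.931 FPKM (0.357 to 1.51) and 2.52 FPKM (1.65 to 3.38). The share of the former in SMC2 was thus 74.0% for the control and 23.7% with LPA. Both isoforms belong to the same start site group and are of nearly equal length (5986 and 5977 nt). NUF2 showed a like shift, from NM_145697 (12.8 and 6.93 FPKM) to NM_031423 (6.93 and 8.82 FPKM), with overlapping bounds. In AURKA, NM_198435 was at 0.00112 FPKM (control) and 6.07 FPKM (LPA, bounds 2.42 to 9.72), while its leading isoform NM_198437 had 17.0 and 13.3 FPKM. These AURKA isoforms also share a start site group. The assignment of reads between isoforms of a gene was not tested, so isoform differences are less certain than gene sums. The higher AURKB level lay in both main isoforms, NM_001256834 (11.7 and 21.8 FPKM) and NM_004217 (27.5 and 32.8 FPKM).

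**Figure D4:**
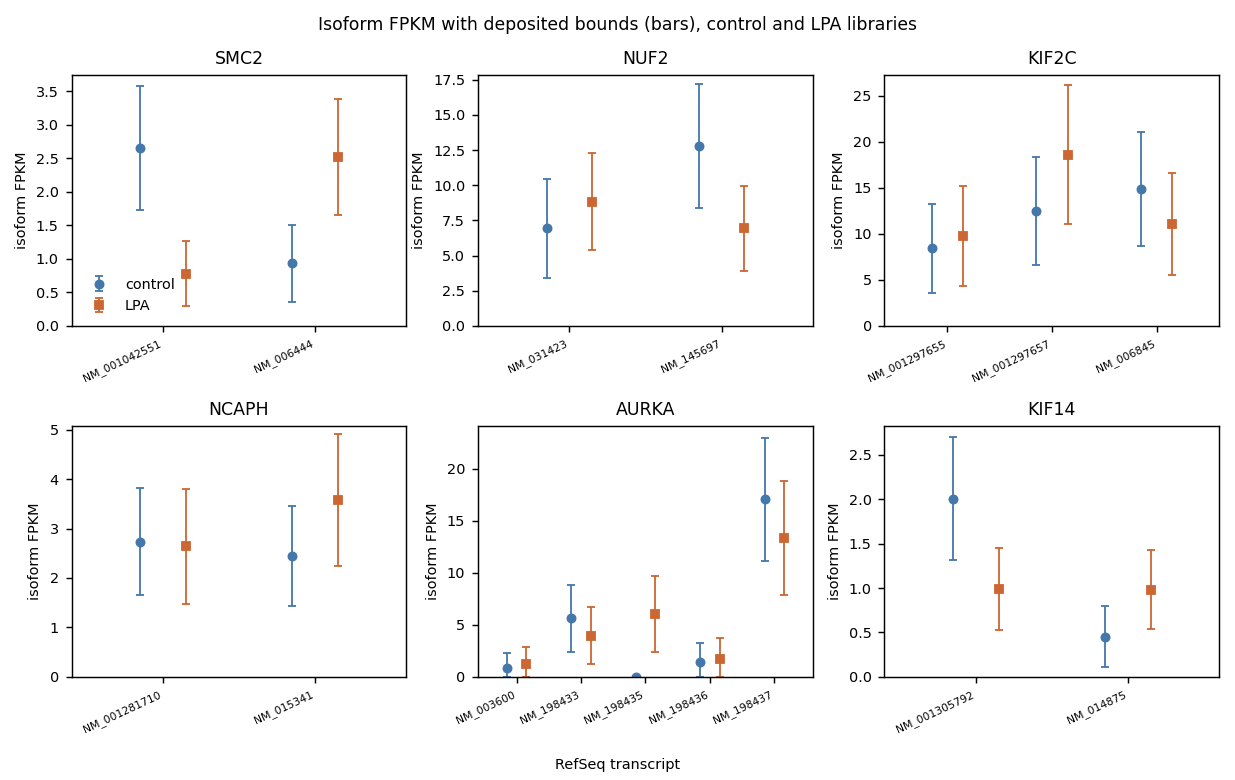
FPKM of the isoforms of 6 mitosis genes in the control (circles) and LPA (squares) libraries; bars are the bounds deposited by the authors, of unstated level, and hold no replicate error. For KIF14 and SMC2 the balance of the 2 isoforms differs between libraries, and the bars are separate for both SMC2 isoforms and for NM_198435 of AURKA.

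Of 8 members with more than 1 start site group in the table, 3 had groups on either side of 0. In CDK1 and SMC2, 1 group was at 0 FPKM in both libraries, so these genes could not show such a split. The like share over all genes was not computed, so the count is not set against a background. For SMC4, the isoforms of 1 group summed to 4.11 and 5.79 FPKM (log2 ratio 0.41), and the isoform of the other group had 8.17 and 5.71 FPKM (-0.45). For KIF2C the groups had 23.3 and 20.8 FPKM (-0.16) and 12.5 and 18.6 FPKM (0.54). For KIF14 they had 2.01 and 0.987 FPKM (-0.60) and 0.454 and 0.982 FPKM (0.45). The deposited bounds overlapped for each isoform of these 3 genes that averaged 1 FPKM or more.

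Other genes of the mitotic machinery, in 7 further lists, lay on both sides of 0. Of 108 measured genes, 51 were above 0 and 57 below, with a median log2 ratio of -0.03. Past the upper limit were 9 (8.33%, beside 8.19% of all genes) and past the lower 19 (17.6%, beside 10.4%). These counts are not adjusted for base composition. After the adjustment for GC content and length, 59 of the 108 were above 0, and their median was 0.02. Regulators of G2/M transcription were above 0 in 9 of 14 cases (median 0.04), with the pocket protein partner gene E2F4 at 47.5 and 62.7 FPKM and LIN37 of the MuvB core at 6.65 and 8.65 FPKM. The lowest of the list by the rule were RBBP4, also of the MuvB core (16.0 and 13.6 FPKM), and the NF-Y subunit gene NFYB (8.98 and 8.41 FPKM). The other core genes, at lower levels and named after values had been seen, were below 0 as well: LIN9 at -0.47, LIN52 at -0.23 and LIN54 at -0.07. FOXM1 and MYBL2, named here for their role after values had been seen, had 20.6 and 23.4 FPKM and 24.6 and 30.4 FPKM. Anaphase-promoting complex genes had 7 of 19 above 0 (median -0.09), with its subunit genes ANAPC10 (15.3 and 10.1 FPKM) and CDC27 (21.96 and 16.5 FPKM) past the lower limit and ANAPC1 (6.27 and 8.10 FPKM) past the upper.

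Cohesin, which holds sister chromatids together, and its regulators had 5 of 14 genes above 0 and a median of -0.16. After the GC and length adjustment 7 of the 14 were above 0, with a median of -0.02. STAG2, a cohesin subunit gene, had 15.2 and 10.7 FPKM and the acetyltransferase gene ESCO1 8.19 and 5.67 FPKM, while CDCA5, which encodes sororin, had 25.1 and 34.8 FPKM. Further kinetochore and checkpoint genes had 11 of 28 above 0 (median -0.06), and 16 of 28 after the adjustment (median 0.03). CENPM, a constitutive centromere gene, had 13.3 and 22.4 FPKM (0.71), the only one of the 108 past 1.5-fold, and the MAD2 partner gene MAD1L1 had 11.6 and 16.7 FPKM. CENPH (10.45 and 7.84 FPKM) and SPC25 (24.3 and 19.1 FPKM), a subunit of the NDC80 complex, were lower. Among spindle and cytokinesis genes 9 of 17 were above 0 (median 0.02), from CKAP2 (18.2 and 13.1 FPKM) and HMMR (18.2 and 13.3 FPKM) to the chromosome kinesin gene KIF22 (43.5 and 54.4 FPKM).

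Kinase and regulator genes divided 6 to 6. PKMYT1, a kinase that inhibits CDK1, had 18.8 and 26.8 FPKM (0.49), while the mitotic kinase gene PBK had 45.3 and 31.3 FPKM (-0.52) and CKS2, a small subunit that binds CDK1, 476 and 340 FPKM (-0.48). The 4 other condensin and topoisomerase genes were all above 0 (median 0.17), among them NCAPH2 (21.4 and 25.6 FPKM) and TOP2B (19.1 and 21.7 FPKM). For comparison, 28 of 35 G1/S and DNA replication genes were above 0, with a median of 0.24, 12 past the upper limit (34.3%, beside 8.19% of all genes) and 1 past the lower (2.86%, beside 10.4%). Their median GC content was 48.4%, against 43.2% for the 44 mitotic genes, and the medians adjusted for both GC and length were 0.23 and 0.06. Whether these lists differ was not tested.

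**Figure D5:**
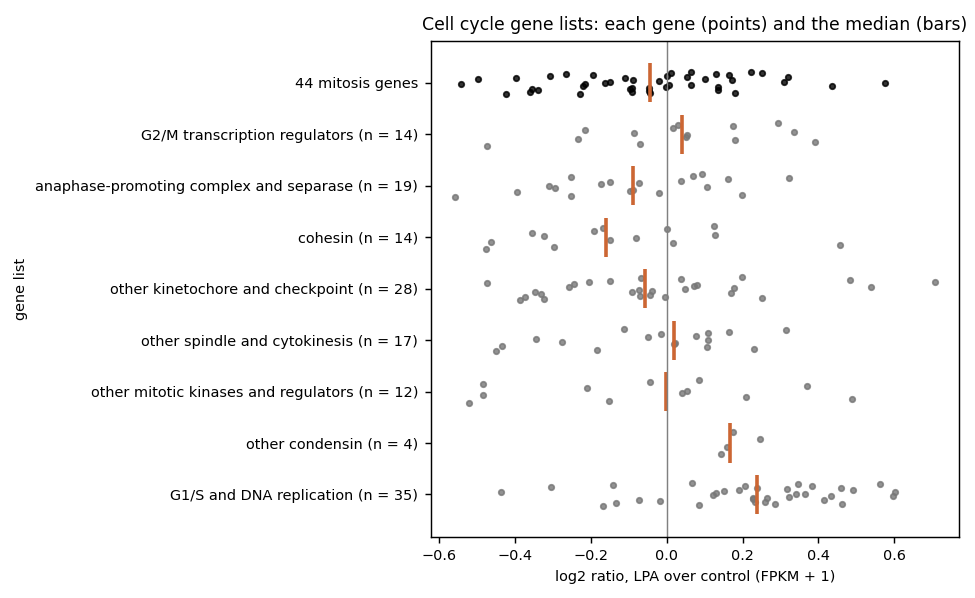
Log2 ratio (LPA over control, FPKM + 1) of each gene (points) and the list median (bars) for the 44 mitosis genes and 8 lists of other cell cycle genes averaging 1 FPKM or more. The 44 genes spread about 0 with a median of -0.04, and most points of the G1/S and DNA replication list lie to the right of 0, with a median of 0.24.

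Several members share sequence with other genes, and the TruSeq V2 kit does not mark strand. Exons of 15 members overlap exons of a gene on the other strand in GENCODE 29, among them KIF18A (with METTL15), MAD2L1, CDC25C and NUF2 (with RGS5). A pseudogene named after the gene is annotated for 10 members, 3 of them also in the first set, so their values are less certain. These include MKI67 with 1 and UBE2C with 4. Exons of 4 members overlap those of another gene on the same strand: CENPA (with SLC35F6), BUB1B, NUSAP1 and PRC1. The genes at the ends of the range lie at chr10:128096661-128126204 (MKI67), chr17:8204731-8210626 (AURKB), chr17:40388521-40417950 (TOP2A), chr3:172750685-172821474 (ECT2) and chr10:60778331-60794852 (CDK1), as loci of the deposited table in hg38.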

How the data were processed

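Poly-A RNA of HCT-116 cells was sequenced as 1 control and 1 LPA library, grouped by sample title. Per the submitters' processing notes, bcl2fastq 2.16.0.10, TopHat2 2.0.12, Cufflinks and Cuffdiff 2.2.0 were used with hg38; their settings and the scaling between libraries are not stated in any label or header. Values were deposited as FPKM of 63236 isoforms, with lower and upper FPKM bounds, per the file headers. Other values deposited and used are isoform lengths.

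Isoform FPKM were summed per symbol. The 16 isoforms with status HIDATA in the LPA library were treated as missing, a departure from the plan to use all isoforms; none of the 16 belongs to a member. A pseudocount of 1 FPKM and a minimum mean of 1 FPKM were used, with no test, since there is 1 library per group. The worth of 1 fragment was read from the step size of length times FPKM among single-isoform genes over 2000 nt. GC content came from GENCODE 29 transcripts (all 44 members matched by RefSeq accession), and promoters from RefSeq GRCh38.p14. The GC and length adjustment is a cubic fit over 11590 genes. Loci are written with 1-based starts. The ratio, interval and fit were tested on simulated gene counts with equal depth in both libraries and a linear GC trend. The worth of 1 fragment and the assignment of reads to isoforms were not tested. Python 3.11.15, pandas 2.3.3, numpy 2.4.6 and scipy 1.17.1 were used.

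Members and lists were chosen with earlier results of these data known. Named genes are all 44 members by role, those past a log2 ratio of 0.32 in full, and from each further list at most the 2 highest and 2 lowest with mean FPKM of at least 5. Alternatives changed the pseudocount, filter, isoforms counted, centring and base composition.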

Additional observations from a re-analysis of the deposited data

How the results depend on the processing

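No paired analysis was possible because each group has 1 library. The labels do not say what the number 3 in both titles stands for, or whether an FPKM column averages replicates. Over 11 alternatives the count of members above 0 stayed between 16 (centred on the reference genes) and 26 (adjusted for GC content and length), and all 9 genes past the limits kept their sign. Only MKI67 and TOP2A stayed past the limits in each of the 11. Keeping the HIDATA isoforms at 0 was added after seeing the data and changed no member. With a pseudocount of 5 FPKM the members at least 20% lower numbered 4 in place of 7 (9.09%, beside 4.12% of all genes), and after adjustment for GC content and length 2 (4.55%, beside 7.59%). When each gene was represented by its leading isoform, 4 members in place of 2 were at least 25% higher (9.09%, beside 12.8% of all genes) and 10 in place of 7 at least 20% lower (22.7%, beside 14.4%). The 4 were MKI67, KIF2C, SMC2 and NCAPH. SMC2 was among them by a narrow choice of leading isoform. NM_006444 averaged 1.723 FPKM (log2 ratio 0.86) and NM_001042551 averaged 1.718 FPKM (log2 ratio -1.04). The counts of members past the limits and the chromosome structure median depend on this choice when the leading isoform is used. AURKB (0.25) and CDC25C (-0.14) no longer passed the limits, and AURKA went from 0.14 to -0.34. The median of the condensin and chromosome structure genes, -0.09, was 0.067 over those averaging 5 FPKM or more (without SMC2), 0.25 with the leading isoform and 0.11 after the GC and length adjustment, and that of the cytokinesis genes was -0.20 after it. Isoforms of members at least 1.5-fold higher and lower, 7 and 7, numbered 3 and 1 with a pseudocount of 5 FPKM, and 1 and 3 with a mean FPKM of at least 5. Shares over all isoforms were not computed for these settings, so whether the drop is particular to the members is not known. The cause of these shifts was not tested. For depth, the median counting half-width of the members' log2 ratio was 0.12 for gene sums, and no value here measures the spread between replicates.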
